A study of Mus musculus with 8 samples.

Results

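The genes described here encode 8 transcription factors of the myeloid lineage, Spi1, Cebpa, Cebpb, Cebpe, Gfi1, Gfi1b, Klf4 and Egr1, taken as a fixed list of symbols. All 8 had a transcript in the pre-B RNA tables, where 11871 genes reached a mean of 1 TPM (a level scaled per length and per library) and were tested, and all 8 had at least 1 peak of open chromatin in the LSK tables. LSK cells (lineage-negative, Sca1+, cKit+) are the bone marrow fraction that holds hematopoietic stem cells and multipotent progenitors. They were profiled by Omni-ATAC-seq, in which a transposase cuts and tags accessible DNA, in 2 WT and 2 Dido1∆E16 libraries. Pre-B cells, sorted from bone marrow, were profiled by RNA-seq, again with 2 libraries per genotype, and a pool of 2 to 3 mice behind each library.

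All animals were C57BL/6. The study's methods give an age of 6 to 10 weeks with matching for sex and age, and the legend to its ATAC and RNA tracks describes the samples as male and of different ages. In Dido1∆E16 animals, one Dido1 allele lacked the 3′-terminal exon 16 from the germ line and the other carried loxP sites around it, cut by a Cre recombinase under the Vav1 promoter, which is active in hematopoietic cells. The controls, called WT, were littermates with a floxed and an intact Dido1 allele. Animals of both genotypes carried the Vav1 Cre and an EYFP reporter that Cre switches on, so the WT cells were open to loss of exon 16 from the floxed allele and kept it on the other. Exon 16 encodes the part of the protein that only the longest product of Dido1, Dido3, contains. In RNA, the coverage of this exon (chr2:180657963-180662583, mm10) relative to the inner exons of the same transcript was 0.485 and 0.414 for WT and 0.0088 and 0.00191 for Dido1∆E16, so the genotype labels of the pre-B libraries matched the deletion. The ATAC libraries offer no such check here.

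PU.1, the ETS-family product of Spi1, directs progenitors toward macrophages at high dose and is also required, at lower dose, for B lymphocytes. The CCAAT/enhancer-binding proteins act in sequence: C/EBPα opens the granulocyte-monocyte program, C/EBPε drives the late granule stage of neutrophils, and C/EBPβ serves macrophages and granulopoiesis on demand. Gfi1 and Gfi1b are zinc-finger repressors that recruit the LSD1 (Kdm1a) and CoREST (Rcor1) complex, Gfi1 mainly in granulocytes and lymphoid progenitors and Gfi1b mainly in erythroid cells and megakaryocytes. Klf4 and Egr1 bind GC-rich DNA and promote monocyte differentiation. Egr1 is also an immediate early gene, one of a class transcribed within minutes of stimulation, and Klf4 can be induced in a similar way.

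All 9 B-lineage markers were present in every pre-B library, and they summed to between 10615 and 12776 TPM. Of these, 7 (Cd79a, Pax5 and others) had log2 differences between -0.27 and 0.16. Vpreb1 and Igll1, which encode the surrogate light chain of early B cells, differed more, with 108 and 40.9 TPM in WT against 1222 and 738 TPM in Dido1∆E16 for Vpreb1 (log2 difference 3.81, unadjusted p = 0.0019, limma adjusted p = 0.19) and 112 and 34.4 against 424 and 252 TPM for Igll1 (2.37, limma adjusted p = 0.33). The 7 LSK markers stayed at or below 22.3 TPM. Kit was at 1.63 and 0.599 against 9.74 and 9.06 TPM (log2 difference 2.34, unadjusted p = 0.0037, limma adjusted p = 0.22), Ly6a at 22.3 and 13.7 against 6.11 TPM and a listed 0, and Hoxa9 and Gata2 were listed at 0 in all 4 libraries, as were Cd3e, Cd3g and Klrd1 among the T and NK cell markers. Markers of other bone marrow cells were present, and their sums differed between libraries of the same genotype. The 10 neutrophil markers summed to 240.4 and 2256 TPM in WT and 1101 and 9827 TPM in Dido1∆E16. The 8 monocyte and macrophage markers summed to 39.06, 226.5, 134.3 and 1439 TPM in the same order, and the erythroid and megakaryocyte markers to 340.1, 952.5, 761.8 and 8751 TPM (8 of 10 had a transcript and Pf4 was at 0). The T and NK cell markers stayed between 17.39 and 37.56 TPM. Replicate 2 of Dido1∆E16 was the highest library and replicate 1 of WT the lowest for each of the 3 myeloid and erythroid lists. Both Dido1∆E16 libraries lay above both WT libraries for 1 of 10 tested neutrophil markers and 1 of 6 of monocytes and macrophages. The same held for 3 of 7 erythroid and megakaryocyte markers, against 27.1% of all genes tested. These 3 were Car2 (39.2 and 28.9 against 78 and 105 TPM), Klf1 and Itga2b. Each had an unadjusted p under 0.05 (limma), as had 11.7% of all genes, and none was called. The coverage summed over exons was 1121 to 1635 megabases per library. In the LSK libraries 4 or 5 of the 7 LSK markers had a promoter peak in each, and none or 1 of the 10 neutrophil markers. Of the 8 monocyte and macrophage markers, 2 and 6 had a promoter peak in the WT libraries against 0 and 1, and of the 10 erythroid and megakaryocyte markers 2 and 6 against 2 and 3. Of the 9 B-lineage markers 0 and 4 had one against 1 and 0, and of the 8 T and NK cell markers 1 and 2 against 0 and 0. The part of these cells in the LSK peaks was not tested.

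None of the 8 factors passed the test for a difference between genotypes in pre-B cells. The C/EBP genes had the highest fitted differences, at 1.04 to 1.85 on the log2 scale, and Klf4 the lowest, at -0.71, each with libraries of 1 genotype far apart. The test was limma on log2(TPM + 1) with Benjamini-Hochberg adjustment, and a call required an adjusted p under 0.05 and a log2 fold change of at least 0.6 in size. Among all genes tested the same rule called 3 higher (0.0253%) and 3 lower (0.0253%), and 1383 genes (11.7%) had an unadjusted p under 0.05, none of them a member. In bulk libraries a change in the share of a cell type and a change in RNA per cell cannot be told apart. TPM is scaled per length, so levels can be compared between genes, but only roughly. The aligner is not splice-aware and strand use in counting is not given in the sources used here. By the mean of the 4 libraries the order was Spi1, Klf4, Egr1, Gfi1, Gfi1b, Cebpe, Cebpb and Cebpa. The lowest library of Spi1 (281 TPM) lay just above the highest of Klf4 (277 TPM), and that of Gfi1 (19.3 TPM) above the highest of Gfi1b (15.98 TPM), whereas the ranges of the other neighbours overlapped.

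**Figure D1:**
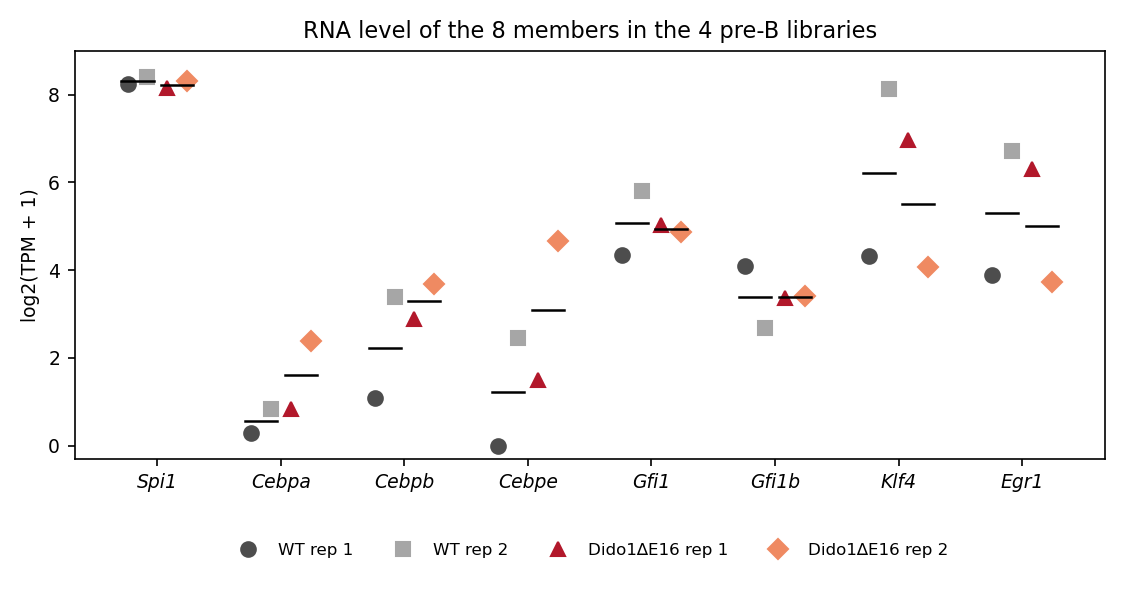
RNA level of each of the 8 genes as log2(TPM + 1) in the 4 pre-B libraries, with 1 symbol per library and a horizontal bar for the mean of the 2 libraries of a genotype. Spi1 is the highest gene with its 4 libraries close together, whereas the 2 libraries of each genotype lie far apart for Klf4, Egr1 and Cebpe.

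Spi1 was abundant and even. Its levels were 300.1 and 336 TPM in WT and 281 and 317 TPM in Dido1∆E16, or 318 ± 25.2 against 299 ± 25.1 TPM (mean ± SD, n = 2 each). The genotypes overlapped, and the log2 difference (Dido1∆E16 minus WT) was -0.09 with a standard error of 0.13 (limma, adjusted p = 0.84). The gene sat at the 95.1st to 96.2nd percentile of the genes tested in every library. Its spread within genotypes, an SD of 0.12 on the log2 scale, was close to the median of 0.14 over the 487 genes of like level (within 0.5 log2 units). Spib, the ETS relative with which PU.1 shares functions in B cells, was higher still, at 2705 and 2776 TPM in WT and 2213 and 2552 TPM in Dido1∆E16.

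The 3 C/EBP genes were low, and each was lowest in WT replicate 1 and highest in Dido1∆E16 replicate 2. Cebpa was at 0.223 and 0.769 TPM in WT and at 0.773 and 4.18 TPM in Dido1∆E16. The genotypes of Cebpa did not overlap, by a margin of a few thousandths of a TPM, a separation in this direction that 27.1% of all genes tested showed. Its log2 difference was 1.04 with a standard error of 0.73 (limma, adjusted p = 0.67). Cebpb was at 1.11 and 9.45 TPM in WT and 6.43 and 11.8 TPM in Dido1∆E16, with overlapping genotypes and a log2 difference of 1.05 (standard error 0.88, limma, adjusted p = 0.69). The study's discussion, from its own analysis of the RNA-seq data, describes Cebpb as affected in cells lacking Dido3. The test used here did not call Cebpb. The Cebpb gene lies within the span of Tmem189, which is transcribed from the opposite strand, and the sources used here do not say whether reads were counted by strand, so part of these reads may not be its own. Cebpe, the gene of the late granulocyte stage, was listed at 0 in WT replicate 1 and had 4.51 TPM in WT replicate 2, 1.82 in Dido1∆E16 replicate 1 and 24.5 in Dido1∆E16 replicate 2. Its fitted log2 difference of 1.85 (standard error 1.42, limma, adjusted p = 0.68) depends on the pseudocount, because of the 0.

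The order of libraries in Cebpb and Cebpe, lowest in WT replicate 1, then Dido1∆E16 replicate 1, WT replicate 2 and Dido1∆E16 replicate 2, was also that of the summed neutrophil markers given above. The summed monocyte and macrophage markers and the summed erythroid and megakaryocyte markers had the same order. This order was described after it was seen, and its share over all genes was not tested. Cebpa departed from it, with Dido1∆E16 replicate 1 (0.773 TPM) just above WT replicate 2 (0.769 TPM). All 10 neutrophil markers and all 14 tested genes among 16 known myeloid targets of these factors were highest in Dido1∆E16 replicate 2, which held for 23.6% of all genes tested. The neutrophil and target lists share Elane, Mpo and Prtn3, so these are not separate observations. The targets had a median log2 difference of 1.60, with 14 of 14 above 0, against a median of 0.07 over all genes, and none was called. The 3 with the largest differences were primary granule or lysosome genes. Prtn3 (proteinase 3) was at 2.77 and 5.29 TPM in WT and 9.79 and 118 TPM in Dido1∆E16, Lyz2 (lysozyme) at 21.6 and 186 against 99.4 and 1213 TPM, and Mpo (myeloperoxidase) at 3.58 and 17.95 against 10.9 and 209 TPM. Without Dido1∆E16 replicate 2 the median of the targets was 0.38, with 11 of 14 above 0, and the differences of Cebpa and Cebpe were both 0.27. The part of the other bone marrow cells in these levels was not tested.

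For 4 of the 14 tested targets both Dido1∆E16 libraries lay above both WT libraries, a separation that 27.1% of all genes tested showed. An unadjusted p under 0.05 (limma) was found for 2 of the 14, against 11.7% of all genes. These 2 were singled out after their values were seen. Csf2rb, the shared β chain of the receptors for GM-CSF, IL-3 and IL-5, was at 12.8 and 14.8 TPM in WT and 37.1 and 50.8 TPM in Dido1∆E16 (log2 difference 1.59, standard error 0.23, unadjusted p = 0.0019, limma adjusted p = 0.19). Itgam, the integrin chain CD11b, was at 22.4 and 27.4 against 43.1 and 71.9 TPM (log2 difference 1.14, standard error 0.30, limma adjusted p = 0.32). Neither passed the adjusted threshold.

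**Figure D2:**
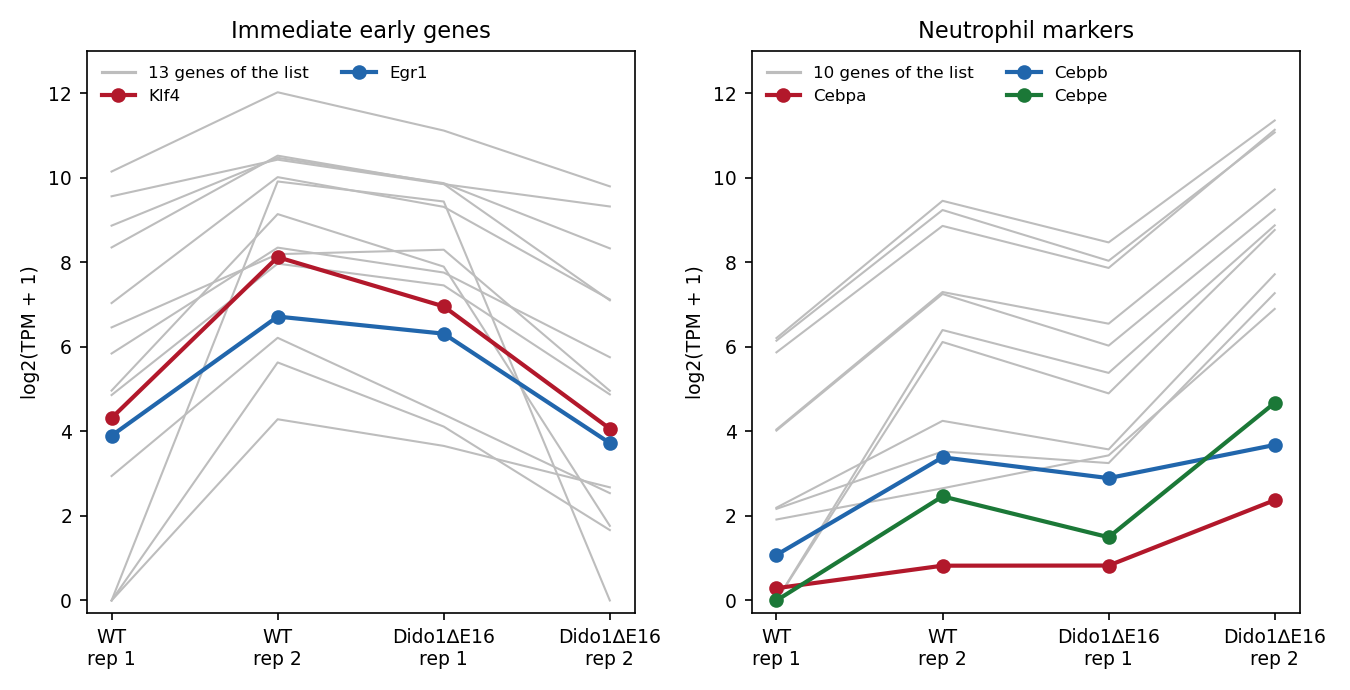
Levels as log2(TPM + 1) across the 4 pre-B libraries, for the 13 immediate early genes (grey lines) with Klf4 and Egr1 (left) and for the 10 neutrophil markers (grey lines) with Cebpa, Cebpb and Cebpe (right). The left group is high in WT replicate 2 and Dido1∆E16 replicate 1, and the right group is highest in Dido1∆E16 replicate 2.

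For both Gfi1 and Gfi1b the Dido1∆E16 libraries lay between the WT libraries. Gfi1 was at 19.3 and 54.4 TPM in WT and 31.4 and 28.2 TPM in Dido1∆E16, and its log2 difference was -0.12 with a standard error of 0.53 (limma, adjusted p = 0.95). Nearly all of this level was assigned to a transcript that starts at position 107724343 of chromosome 5 (19.3, 53.6, 31.4 and 28.2 TPM), downstream of the start at 107725805 whose transcript was listed at 0 in 3 libraries and at 0.847 TPM in WT replicate 2. Gfi1b was at 15.98 and 5.41 TPM in WT and 9.23 and 9.67 TPM in Dido1∆E16, with a log2 difference of 0.00 and a standard error of 0.53 (limma, adjusted p = 1.00). Its longer transcript has no symbol in the deposited tables and was matched through GENCODE; the transcript that has one was at 3.85 TPM in WT replicate 1 and listed at 0 in the others. Levels of Kdm1a were 150 and 128 TPM in WT and 159 and 165 TPM in Dido1∆E16, and those of Rcor1 were 78.5, 57.2, 75.1 and 81.8 TPM in the same order.

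Klf4 and Egr1 differed more between libraries of 1 genotype than between the genotypes. Klf4 was at 18.9 TPM in WT replicate 1 and 277 in WT replicate 2, and at 123 TPM in Dido1∆E16 replicate 1 and 15.7 in Dido1∆E16 replicate 2. Its highest library exceeded its lowest 17.7-fold. The log2 difference between genotypes was -0.71 with a standard error of 1.65 (limma, adjusted p = 0.90), and it became 1.19 without WT replicate 2 and 0.73 without Dido1∆E16 replicate 2. Egr1 was at 13.9 and 104 TPM in WT and 78.3 and 12.2 TPM in Dido1∆E16, an 8.52-fold range. Its log2 difference of -0.29 (standard error 1.33, limma, adjusted p = 0.95) became 1.12 without WT replicate 2 and 1.00 without Dido1∆E16 replicate 2. The SD within genotypes was 2.39 log2 units for Klf4 and 1.91 for Egr1, larger than in 99.7% of 2222 and 99.0% of 2206 genes of like level. That of Cebpe was 2.01, larger than in 95.4% of 1105 such genes.

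The 13 immediate early genes listed beside them, which encode AP-1 subunits, phosphatases of MAP kinases and related early factors, were high and low in the same libraries. In each of the 13, both WT replicate 2 and Dido1∆E16 replicate 1 lay above the other libraries, a pattern shared by 13.8% of all genes tested and described after it was seen. This pattern also held for 3 of the 8 factors, Klf4, Egr1 and Gfi1. The list summed to 3012 and 11959 TPM in WT and 7298 and 2245 TPM in Dido1∆E16. Among the genes with a difference below 0, Fosb had the largest, with 30.2 and 562 TPM in WT and 237 and 2.40 TPM in Dido1∆E16, followed by Nr4a1 (6.69, 73.1, 20.1 and 4.81 TPM) and Jun (325, 1466, 922 and 136 TPM in the same order). Ier3 and Atf3 were the only tested genes of the list with a fitted difference above 0, at 1.02 and 0.08, and both were listed at 0 in WT replicate 1. No gene of the list was called. The median log2 difference was -0.41 and turned to 0.53 without WT replicate 2 and 0.78 without Dido1∆E16 replicate 2.

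Among 14 family relatives, 13 were tested and none was called. The largest differences were those of Spic (listed at 0 in 3 libraries and at 5.67 TPM in Dido1∆E16 replicate 1), Klf10 (23.7 and 48.8 against 26.1 and 13.3 TPM, log2 difference -0.83), Egr3 (-0.73) and Egr2 (-0.63), and the differences of Cebpg (0.18) and Elf1 (0.16) were small. For 5 of the 13 tested relatives, WT replicate 2 and Dido1∆E16 replicate 1 both lay above the other libraries, as in the immediate early genes. The same held for 5 of the 15 tested genes of the next list, and for 13.8% of all genes tested. Among 17 partners, cofactors and antagonists, 15 were tested and none was called. Nab1, a corepressor that binds Egr1, was at 18.5 and 16.4 TPM in WT and 34.9 and 39.6 TPM in Dido1∆E16 (log2 difference 1.05, standard error 0.18, unadjusted p = 0.0034, limma adjusted p = 0.22). Its paralog Nab2 was at 4.74 and 5.04 against 2.84 TPM and a listed 0 (log2 difference -1.59, adjusted p = 0.54). Irf8, which pairs with PU.1 on composite sites in B cells and monocytes, was at 291 and 289 TPM in WT and 394 and 364 TPM in Dido1∆E16 (log2 difference 0.38, limma adjusted p = 0.35), and Irf4, its relative, at 478 and 628 against 442 and 369 TPM (-0.44, adjusted p = 0.51). Hdac2, a histone deacetylase of corepressor complexes, was at 161 and 105 TPM in WT and 159 and 155 TPM in Dido1∆E16 (log2 difference 0.27, adjusted p = 0.71). Trib1, a pseudokinase that promotes C/EBPα degradation, was at 15.4 and 169 against 56.4 and 22.6 TPM (log2 difference -0.53, adjusted p = 0.90).

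In the LSK libraries the 8 factors had 18 and 30 MACS2 peaks in WT and 9 and 7 in Dido1∆E16, each peak assigned to the gene with the nearest start by its deposited annotation. Peaks of all genes were fewer as well, with 27352 and 57739 in WT and 13208 and 16329 in Dido1∆E16, and the factors held 6.58 and 5.20 of every 10000 peaks in WT and 6.81 and 4.29 in Dido1∆E16. The number of sequenced tags did not follow the number of peaks, with 10249256 and 52050898 in WT and 22533077 and 44633938 in Dido1∆E16. For 3 factors, Klf4, Egr1 and Gfi1b, each Dido1∆E16 library had fewer peaks than either WT library, as had 35.6% of the 17769 genes with a peak. With 2 libraries against 2 the exact two-sided permutation test over the 6 splits cannot give a p below 0.333, which is the p of each of the 3. HOMER, the second peak caller, gave this separation for Klf4 and Cebpa, against 19.5% of all genes. With the same number of best-scoring MACS2 peaks taken from each library, 13208, it held for none of the 8, against 7.16% of genes.

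**Figure D3:**
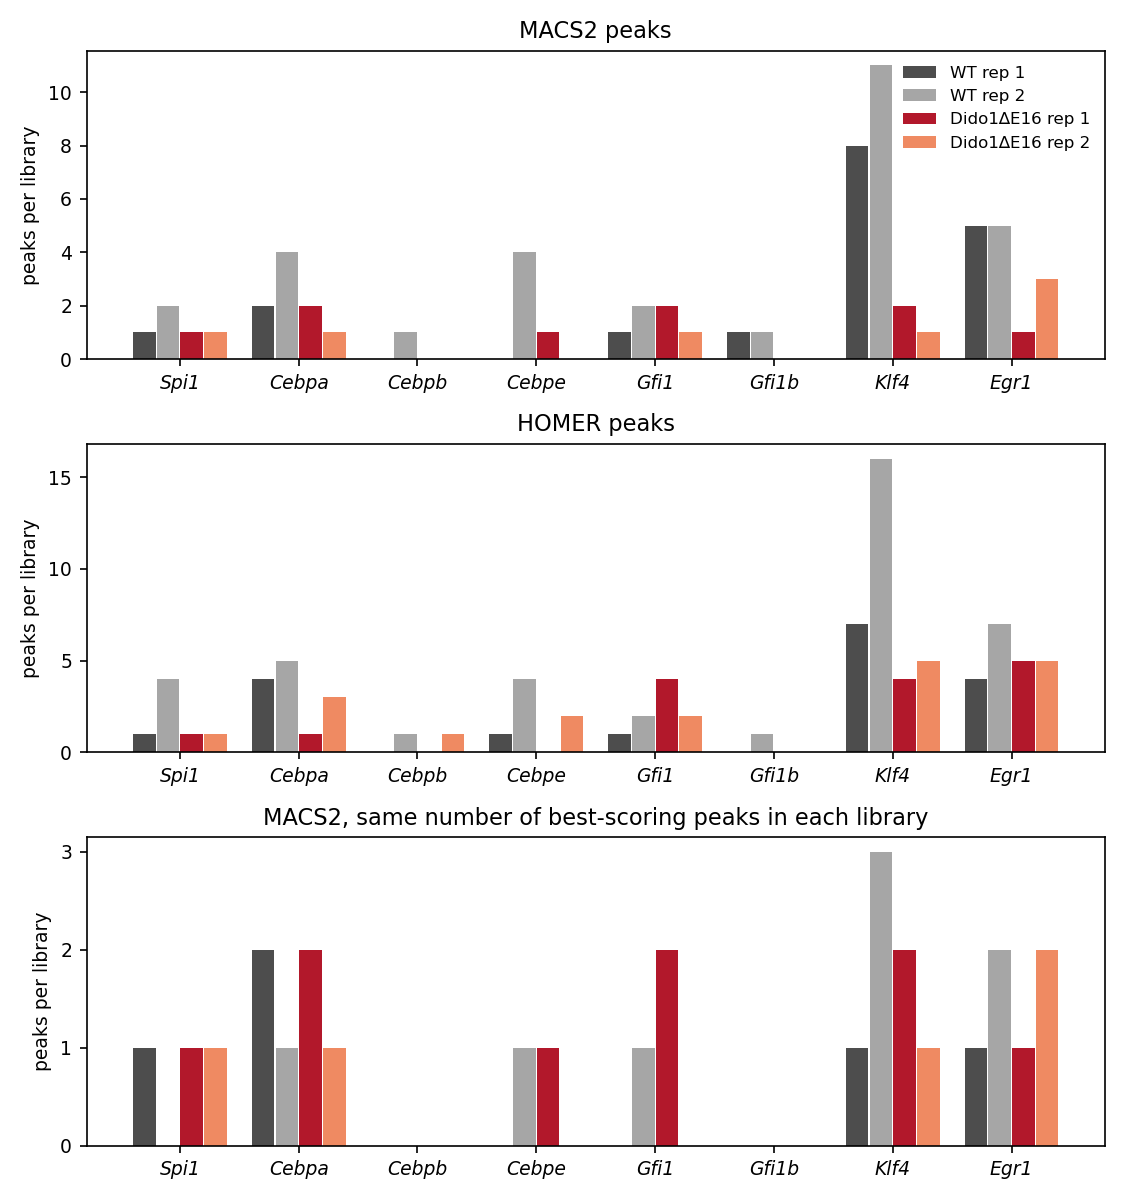
Number of peaks assigned to each of the 8 genes in the 4 LSK libraries, as bars from 0, for MACS2 (top), HOMER (middle) and equal numbers of the best-scoring MACS2 peaks (bottom). The difference for Klf4, from 8 and 11 MACS2 peaks (WT) to 2 and 1 (Dido1∆E16), is visible in the first 2 panels and not in the third.

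Klf4 lies in a wide gene-poor interval and had the most peaks of the 8, with 8 and 11 in WT and 2 and 1 in Dido1∆E16 by MACS2 and 7 and 16 against 4 and 5 by HOMER. Egr1 had 5 and 5 against 1 and 3 by MACS2 but 4 and 7 against 5 and 5 by HOMER. Gfi1b had 1 peak in each WT library, at different places, and none in either Dido1∆E16 library. Cebpa had 2 and 4 against 2 and 1, Cebpe none and 4 against 1 and none, and Gfi1 1 and 2 against 2 and 1. Spi1 had 1 and 2 against 1 and 1, and Cebpb had a single peak, in WT replicate 2. No peak found in both Dido1∆E16 libraries and in neither WT library was assigned to any of the 8, of 108 such peaks in all. The factors held 6.81 and 4.29 of every 10000 peaks in Dido1∆E16, so 108 peaks are too few to show whether they gained any.

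The promoters of Spi1, Cebpa and Egr1 held a MACS2 peak in all 4 libraries. Scores were compared as percentiles of all peaks within a library, since the scale of the deposited score is not given in the sources used here. The Cebpa promoter peak stood at percentiles 70.4 and 82.6 in WT and 46.7 and 87.8 in Dido1∆E16, which overlap (exact permutation p = 1 for the difference of -9.27). That of Spi1 stood at 77.2 and 69.5 in WT and 15.6 and 63.9 in Dido1∆E16 (exact permutation p = 0.333, the smallest possible, for a difference of -33.6). As percentiles of promoter peaks alone, the Spi1 values were 59.3 and 40.9 in WT and 8.98 and 50.2 in Dido1∆E16, so that the genotypes overlapped (exact permutation p = 0.667, difference -20.5). For Egr1 the values were 30.9 and 58.1 against 9.88 and 24.5 (exact permutation p = 0.333, difference -27.3), and over promoter peaks 18.7 and 31.3 against 5.32 and 14.8 (exact permutation p = 0.333). The Klf4 promoter had a peak in 3 libraries, at percentiles 13.3 and 61.3 in WT and 11.7 in Dido1∆E16 replicate 1, and a HOMER peak in all 4. Peaks of all 4 libraries near the Gfi1 start joined into a single stretch. That of Dido1∆E16 replicate 2 (percentile 3.4) was annotated as exonic and did not overlap the region shared by both WT libraries. The promoters of Cebpb, Cebpe and Gfi1b held a MACS2 peak in WT replicate 2 alone, the library with the most tags and peaks.

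The promoters below, 250 bases upstream of the start (GRCm38.p6, RefSeq), are those with an entry for the 5 factors whose promoter peak had the highest percentile of the 8 in 3 of the 4 libraries (Cebpa) or was not found in all libraries, and Gfi1 has 2 starts. Spi1, Cebpe and Egr1 are named only. Each runs 5′ to 3′ on the strand of its gene, and capitals mark exact matches, on either strand, to the motifs of PU.1 (GAGGAAGT), C/EBP (TTGCGNAA), Egr (GCGTGGGCG or GCGGGGGCG), Klf (CCCCACCC), Gfi1 (TAAATCAC) and CREB (TGACGTCA) or to the CArG box of serum response factor.
Cebpa promoter (chr7:35119043-35119292, plus strand): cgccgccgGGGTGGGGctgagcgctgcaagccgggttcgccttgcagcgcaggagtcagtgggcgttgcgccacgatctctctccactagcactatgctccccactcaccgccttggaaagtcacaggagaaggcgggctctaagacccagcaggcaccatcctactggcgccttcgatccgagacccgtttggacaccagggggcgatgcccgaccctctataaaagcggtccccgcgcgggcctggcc
Cebpb promoter (chr2:167688665-167688914, plus strand): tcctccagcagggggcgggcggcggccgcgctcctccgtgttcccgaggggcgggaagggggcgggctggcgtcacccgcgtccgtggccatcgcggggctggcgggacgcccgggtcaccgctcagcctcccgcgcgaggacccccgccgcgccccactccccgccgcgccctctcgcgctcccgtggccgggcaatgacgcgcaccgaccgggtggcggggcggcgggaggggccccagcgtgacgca
Klf4 promoter (chr4:55532476-55532725, minus strand): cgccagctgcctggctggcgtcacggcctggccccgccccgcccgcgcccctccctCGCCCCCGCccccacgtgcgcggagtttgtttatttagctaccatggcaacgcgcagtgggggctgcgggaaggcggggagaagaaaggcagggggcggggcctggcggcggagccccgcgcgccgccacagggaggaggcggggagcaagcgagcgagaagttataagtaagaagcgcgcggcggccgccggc
Gfi1 promoter, upstream start (chr5:107725806-107726055, minus strand): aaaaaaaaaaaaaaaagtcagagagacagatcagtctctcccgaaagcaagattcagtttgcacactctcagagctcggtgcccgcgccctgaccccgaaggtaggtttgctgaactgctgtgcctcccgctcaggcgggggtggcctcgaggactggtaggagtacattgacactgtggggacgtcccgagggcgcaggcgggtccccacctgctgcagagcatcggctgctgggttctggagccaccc
Gfi1 promoter, downstream start (chr5:107724344-107724593, minus strand): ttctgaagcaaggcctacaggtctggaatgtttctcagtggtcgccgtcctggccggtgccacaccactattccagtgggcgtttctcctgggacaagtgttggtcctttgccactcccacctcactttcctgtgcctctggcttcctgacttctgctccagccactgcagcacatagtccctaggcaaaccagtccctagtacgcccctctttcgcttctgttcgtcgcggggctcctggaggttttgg
Gfi1b promoter (chr2:28621983-28622232, minus strand): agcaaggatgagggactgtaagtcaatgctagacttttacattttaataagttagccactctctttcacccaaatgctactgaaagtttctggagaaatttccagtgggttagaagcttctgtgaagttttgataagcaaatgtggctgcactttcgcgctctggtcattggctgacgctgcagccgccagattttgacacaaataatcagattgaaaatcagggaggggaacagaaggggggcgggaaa
The stretches differ in base composition. Those of Cebpb, Klf4 and Cebpa held 41, 32 and 22 CpG dinucleotides, the Gfi1 starts 13 and 9 and Gfi1b 5, against a median of 6 over 32841 promoters, and their GC content ran from 81.6% (Cebpb) to 44.4% (Gfi1b) against a median of 52.4%. Only 2 matches were found. The Klf4 promoter held an Egr match, as 3.06% of all promoters did, and the Cebpa promoter held a Klf match, as 9.06% did. The other motifs, present in 2.44% (PU.1), 0.67% (C/EBP), 0.512% (Gfi1), 1.55% (CREB) and 1.47% (CArG) of promoters, were not found in these windows. A match is a description of letters, not of a bound site.

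By MACS2 most regions away from promoters that had a peak in both WT libraries had none in Dido1∆E16, at these genes and over all genes, whereas by HOMER most had one. Of 14 regions shared by both WT libraries and assigned to a factor, 7 had no peak in either Dido1∆E16 library, against 43.7% of 26327 regions in all. All 5 promoter regions of the factors had a peak in at least 1 Dido1∆E16 library (15% of all promoter regions lacked one), whereas 7 of the 9 other regions had none (60.6% of all non-promoter regions lacked one). By HOMER 4 of 13 non-promoter regions of the factors had none, against 42.3% of all non-promoter regions. With equal numbers of best-scoring MACS2 peaks the share over all non-promoter regions was 27.7%, and the factors kept 1 such region, which had none. The 7 regions are 5 of Klf4, 1 of Cebpa and 1 of Egr1. Those of Klf4 lay at -53.8 (intronic), -119, -292 and -581 kb and at 1.88 kb (exonic) from its start, that of Cebpa at -20.2 kb and that of Egr1 at -4.71 kb. Only the Cebpa region and the Klf4 regions at -292 and -53.8 kb also had no HOMER peak in either Dido1∆E16 library; HOMER found peaks in both Dido1∆E16 libraries at the Klf4 region at -119 kb and at the Egr1 region.

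**Figure D4:**
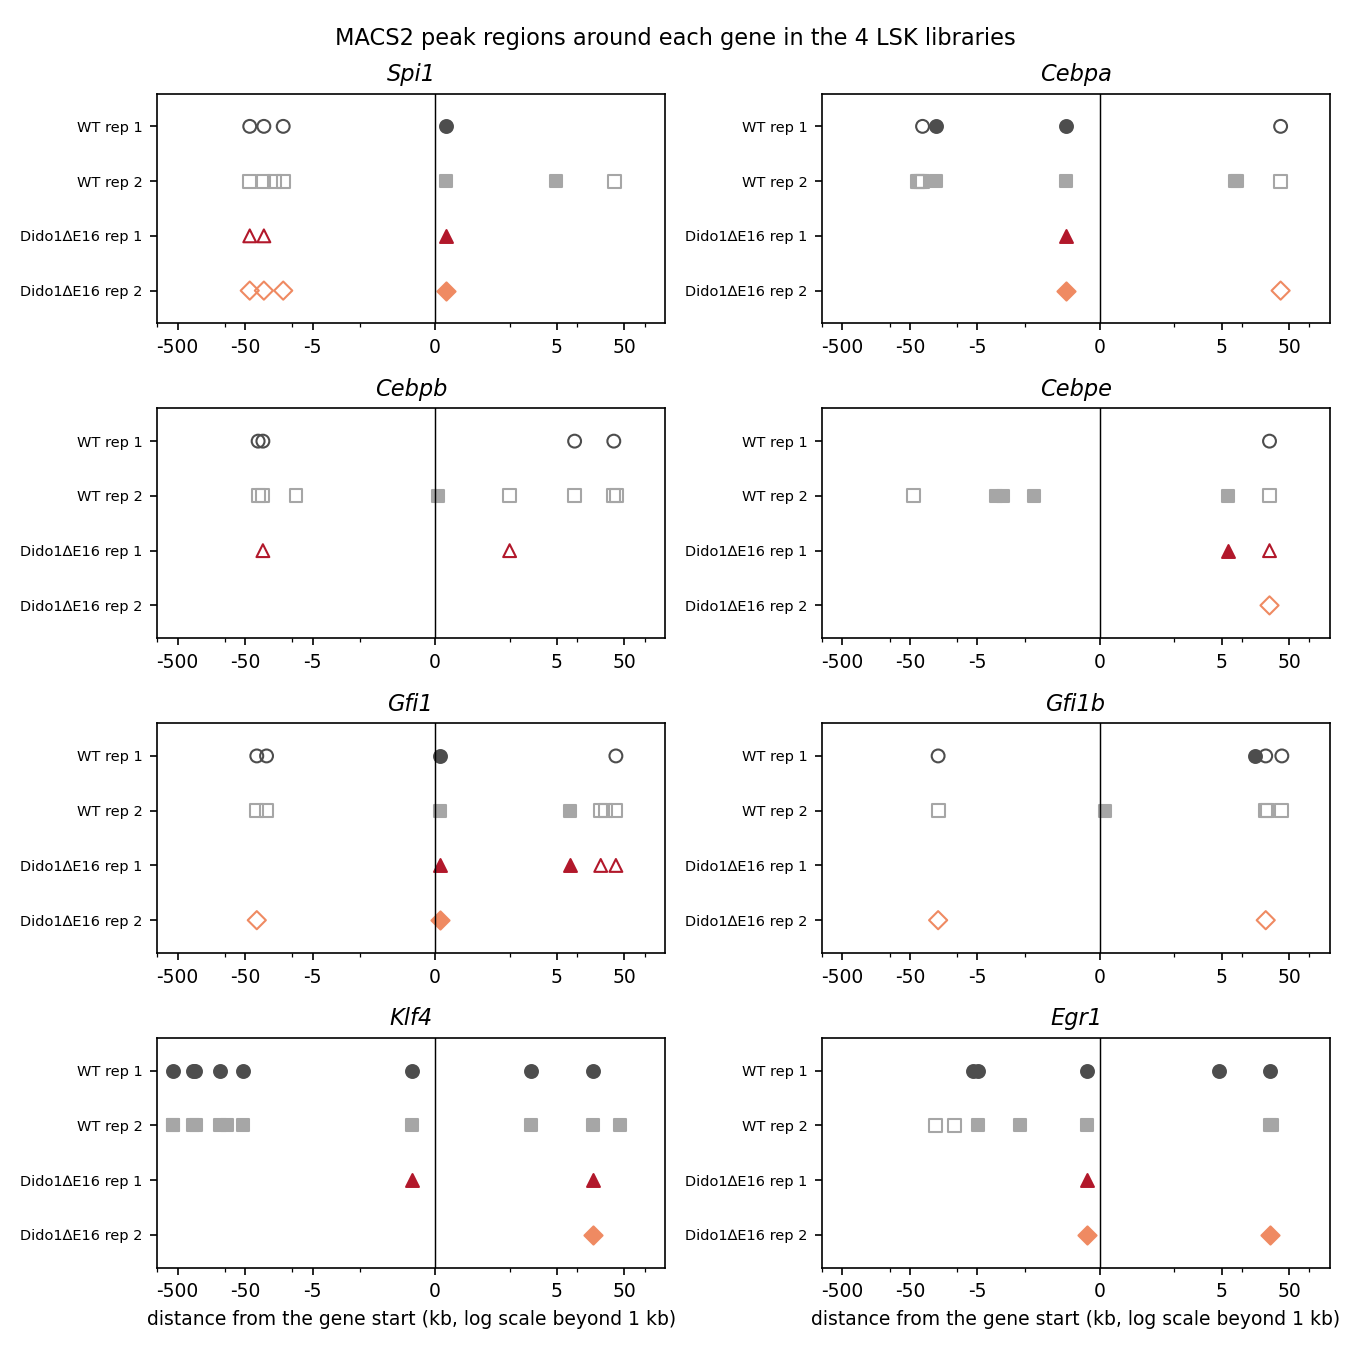
Position of MACS2 peak regions relative to the start of each gene, in kb on a symmetric log axis (linear within 1 kb), with negative values upstream and 1 row per LSK library. Filled symbols are peaks assigned to the gene itself and open symbols are peaks within 50 kb assigned to a neighbour; the distal peaks of Klf4 are confined to the WT rows apart from the region at 17.4 kb, found in all 4 libraries.

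Of the 5 intergenic regions with a MACS2 peak in both WT libraries and in neither Dido1∆E16 library, that of Egr1 is named only, and the 4 of Cebpa and Klf4 are shown as 300-base windows around their centres (GRCm38.p6, plus strand), with the same capitals.
Cebpa region at -20.2 kb (chr7:35098798-35099097, plus strand): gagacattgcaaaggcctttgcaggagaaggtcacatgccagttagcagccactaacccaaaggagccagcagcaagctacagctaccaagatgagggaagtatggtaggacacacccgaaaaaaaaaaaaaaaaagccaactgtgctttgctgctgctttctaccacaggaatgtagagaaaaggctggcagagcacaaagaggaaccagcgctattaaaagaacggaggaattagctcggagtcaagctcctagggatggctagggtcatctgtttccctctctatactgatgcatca
Klf4 region at -119 kb (chr4:55651301-55651600, plus strand): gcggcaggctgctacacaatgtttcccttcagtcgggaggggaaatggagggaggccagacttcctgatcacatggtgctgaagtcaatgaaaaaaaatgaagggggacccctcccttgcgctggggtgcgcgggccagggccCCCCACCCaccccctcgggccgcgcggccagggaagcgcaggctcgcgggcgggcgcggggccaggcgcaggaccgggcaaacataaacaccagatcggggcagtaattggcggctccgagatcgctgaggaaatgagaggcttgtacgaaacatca
Klf4 region at -292 kb (chr4:55824057-55824356, plus strand): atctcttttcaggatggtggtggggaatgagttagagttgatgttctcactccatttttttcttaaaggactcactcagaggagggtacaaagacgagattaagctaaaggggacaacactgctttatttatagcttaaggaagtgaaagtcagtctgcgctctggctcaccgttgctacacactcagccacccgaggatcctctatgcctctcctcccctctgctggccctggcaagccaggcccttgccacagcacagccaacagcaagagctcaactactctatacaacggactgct
Klf4 region at -581 kb (chr4:56113872-56114171, plus strand): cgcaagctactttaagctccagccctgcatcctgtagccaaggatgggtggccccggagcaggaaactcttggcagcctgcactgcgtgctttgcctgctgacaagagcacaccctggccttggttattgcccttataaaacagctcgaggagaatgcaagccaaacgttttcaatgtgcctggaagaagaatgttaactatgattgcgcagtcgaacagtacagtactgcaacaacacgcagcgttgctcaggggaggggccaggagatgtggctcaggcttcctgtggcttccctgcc
The region at -119 kb held 22 CpG dinucleotides and 63.7% GC and the others 4, 5 and 9 CpG, against a median of 8 over the 26327 windows of regions shared in WT. It also held the only match, to the Klf motif, which 7.13% of those windows held. PU.1 letters, found in 7.8% of the windows, were in none of the 4.

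The scores of these regions in WT were moderate, at percentiles 71.4 and 74.2 for the Cebpa region and 62.4 and 75.9, 47.3 and 88.4, and 45.1 and 86.8 for the Klf4 regions at -119, -292 and -581 kb. Across all regions shared in WT, sorted into 5 classes by the score in WT replicate 1, the share without a Dido1∆E16 peak fell from 71.3% in the lowest class to 5.01% in the highest, and none of the 14 regions of the factors was in the highest class. The deposited lists of regions that differ between the genotypes give log2 tag counts scaled to the total of each library, for regions picked by that difference, so the values are given without a test. At the Klf4 region at -119 kb they were 7.02 and 6.70 in WT and 5.85 and 5.84 in Dido1∆E16, a difference of -1.02. At -292 kb they were 4.84 and 5.16 against 4.40 and 4.08, and at -581 kb 5.66 and 5.90 against 5.04 and 4.82. The Cebpa promoter region was also listed, with 8.46 and 8.11 against 7.51 and 7.63 (difference -0.71), although all 4 libraries had a peak there. An Egr1 upstream region had 7.89 and 7.57 against 6.85 and 7.08. A region 9.19 kb downstream of the Cebpb start, assigned to a neighbour, had 5.74 and 5.66 against 4.91 and 4.64. One 24 kb upstream of Gfi1, in Evi5, had 5.53 and 5.46 against 4.56 and 4.76. The values at -292 kb come from the list with Dido1∆E16 as target, and the others given above from the list with WT as target. The region at -119 kb was in both lists. In the list with Dido1∆E16 as target it had 5.99 and 5.77 in WT against 5.04 and 4.86 in Dido1∆E16. That list thus held lower values in Dido1∆E16 at both Klf4 regions, and the direction in which it selects was not tested. No listed region overlapped a peak region of Spi1, Cebpe or Gfi1b.

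Within 50 kb of the gene starts, peaks assigned to neighbouring genes were counted too, and 5 of the 8 factors then had fewer peaks in each Dido1∆E16 library than in either WT library, as had 48.7% of the 17769 genes counted in the same way. Several of these regions lie where hematopoietic enhancers of the factors are known, and they were singled out for that after the peaks were seen. A region 13.6 kb upstream of Spi1, the place of its upstream regulatory element, had a peak in both WT libraries (percentiles 54.9 and 65.0) and in Dido1∆E16 replicate 2 (36.2) by both callers. A region 37.4 kb downstream of the Cebpa start, where a progenitor enhancer of Cebpa lies, had a peak in the same 3 libraries (13.3, 59.7 and 18.1). A region 33.5 kb upstream of Gfi1, inside an intron of Evi5, likewise had a MACS2 peak in these 3 (20.8, 81.5 and 27.7) and a HOMER peak in all 4. At 6.15 kb downstream of the Cebpe start a MACS2 peak was present in WT replicate 2 and Dido1∆E16 replicate 1 (81.8 and 15.6), and HOMER peaks in both WT libraries and Dido1∆E16 replicate 2. A Gfi1b peak 15.8 kb downstream of its start was found in WT replicate 1 alone (percentile 10.8) and by MACS2 alone. Of these picked regions, all but that of Gfi1b had a peak in at least 1 Dido1∆E16 library. By MACS2 the Cebpe region lacked a peak in WT replicate 1 and the Gfi1b region in WT replicate 2. Of all non-promoter regions shared by both WT libraries, 60.6% lacked a Dido1∆E16 peak by MACS2 and 42.3% by HOMER. Whether known enhancers kept a peak more often than other regions was not tested.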

How the data were processed

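ATAC-seq peaks of 4 LSK libraries and RNA-seq transcript tables of 4 pre-B libraries were used as deposited. The authors aligned reads to mm10 with BWA 0.7.15 (per the processing notes), removed duplicates, called peaks in each library separately (MACS2, HOMER) and annotated them with ChIPseeker (promoter, -1 kb to +200 bp). The deposited peak score has no stated scale. The authors ran StringTie on UCSC transcripts, giving TPM and FPKM per transcript. The deposited lists of differing regions hold log2 tag counts per library, and the authors' own fold changes and p-values were not used. The aligner is not splice-aware and strand use in counting is not given in the sources used here.

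TPM was summed per gene. Of 63753 transcripts, 30124 had a symbol in the deposited tables and 56380 after adding GENCODE genes sharing at least 50% of exonic bases. Genes with a mean of at least 1 TPM were tested on log2(TPM + 1) with limma 3.58.1 (R 4.3.3), empirical Bayes with a trend, Benjamini-Hochberg over 11871 genes; a fold change on this scale understates changes of low genes. Peak counts and percentiles used an exact permutation test (scipy 1.17.1), and overlaps of at least 1 bp bedtools 2.31.1. The limma fit was tested on simulated data, and the overlap and motif rules on small made-up examples. With 2 libraries per group, each from pooled mice for RNA and of a number of mice not given for ATAC, power is low. The study calls the replicates of both assays biological. Named genes were all 8 factors and, per list, called genes or the up to 3 largest differences per direction. The members and lists were chosen with earlier results of these data known. Some genes of the lists are not reported here and were left out of the lists' counts and sums. Alternatives were another pseudocount, no filter, FPKM, median centring, no trend, a replicate block, single transcripts, stricter thresholds, leaving out each library, other peak sets and overlaps and, added after seeing the data, deposited symbols alone.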

Additional observations from a re-analysis of the deposited data

How the results depend on the processing

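No member was called under any of the 13 alternatives of the RNA test: single transcripts, deposited symbols alone and the others. The count over all genes, 6, was 0 with a pseudocount of 0.1, with no filter, with the stricter threshold and without any one library (0 to 0), 87 without the trend and 25 for single transcripts. With the replicate block it was 0. The replicate numbers are not stated to pair samples and their deviations correlated at 0.0474, so the block was not used. The count was 9 with deposited symbols alone, and 6 in FPKM and with median centring. Leaving out each library gave ranges of -0.10 to 2.21 for Cebpb, -0.85 to 0.60 for Gfi1, -2.61 to 1.19 for Klf4 and -1.70 to 1.12 for Egr1 (log2), with Gfi1b from -0.70 to 0.70. Gfi1b was not tested with deposited symbols alone, nor Cebpa in FPKM, where its mean was under the minimum.

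The number of factors with fewer peaks in each Dido1∆E16 library than in either WT library, 3, was 0 with equal peak numbers, 5 within 50 kb and between 3 and 7 without any one library, 7 being without WT replicate 1. The Spi1 difference turned to 0.5 with equal peak numbers, that of Cebpe to between -3.5 and 0.5 without any one library, and that of the Cebpa promoter percentile to 3.64 over promoter peaks. The share of WT-shared regions of the factors without a Dido1∆E16 peak, 50%, was 22.2% by HOMER. The cause of these changes was not tested. A peak that was not called is not shown to be absent at the depth of these libraries.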
